A study of Mus musculus with 6 samples.

Results

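The miR-23/27/24 clusters were examined in small RNA of mouse primary mesangial cells with and without transforming growth factor beta1 (TGF-beta1). The members were every listed arm of the hairpins miR-23a, miR-23b, miR-27a, miR-27b, miR-24-1 and miR-24-2, chosen by hairpin name, and they came to 11 of the 778 mature miRNAs in the table. Mesangial cells are contractile cells that hold up the capillaries of the glomerulus in the kidney, and TGF-beta1 is a cytokine known for driving matrix deposition in kidney fibrosis. There were 3 Control libraries, and 3 TGF-beta1 libraries from cells that received 10 ng/ml of the cytokine over 72 h. Cells of both groups were at passages 3 to 6, in medium with 25.5 mM glucose and 20% foetal bovine serum, and no strain, sex or genetic change is given for them. The labels do not say whether the 3 libraries of a group came from separate cultures. Each p-value therefore compares the groups over these libraries, whose spread may not be that between cultures. RNA came from bulk cells, in which fewer cells that make a miRNA and less of that miRNA per cell cannot be told apart.

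A miRNA hairpin is cut into a 5p and a 3p arm, and one of these strands is usually kept by Argonaute while the other is degraded. The hairpins of the 3 families lie side by side at a pair of genomic loci and are known to be made from one primary transcript at each locus. A mature miRNA finds its targets mainly through its seed, bases 2 to 8 from the 5′ end, and miR-27 is best known for restraining adipogenic and lipid genes while miR-24 and miR-23 are widely expressed in mesenchymal and vascular cells.

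The sequences below carry the comparison because they show which members the reads can tell apart. They are from RefSeq (GRCm38.p6), which held 10 of the 11 members, are written 5′ to 3′ and have the seed in capitals. The 3p arms were as follows.
mmu-miR-23a-3p: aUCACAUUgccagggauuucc
mmu-miR-27a-3p: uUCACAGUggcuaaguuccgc
mmu-miR-27b-3p: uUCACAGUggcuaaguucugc
mmu-miR-24-3p: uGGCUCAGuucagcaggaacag
The 5p arms, which differ between the loci, were these.
mmu-miR-23a-5p: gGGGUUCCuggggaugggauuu
mmu-miR-23b-5p: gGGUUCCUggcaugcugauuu
mmu-miR-27a-5p: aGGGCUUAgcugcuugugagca
mmu-miR-27b-5p: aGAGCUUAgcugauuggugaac
mmu-miR-24-2-5p: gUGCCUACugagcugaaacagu
mmu-miR-24-1-5p: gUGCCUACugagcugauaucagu

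MiR-27a-3p and miR-27b-3p share the seed UCACAGU and differ by 1 base of 21, C19U, counted from 1 at the 5′ end with the base of miR-27a-3p first. Their 5p arms differ at 8 of 22 bases and have different seeds. The mature miR-24-3p is the same from both loci, so its reads cannot be assigned to either, while miR-24-1-5p and miR-24-2-5p share the seed UGCCUAC and their first 16 bases. MiR-23a-3p has the seed UCACAUU, which no other listed miRNA with a sequence in the table has. MiR-23b-3p is named only. Of the 778 listed miRNAs, 581 had a sequence in the table, and none of these outside the members had the seed of a member. The others, miR-23b-3p among them, were not compared.

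On chromosome 8 (GRCm38.p6, plus strand), Mir23a lies at 84208518 to 84208592, Mir27a at 84208672 to 84208758 and Mir24-2 at 84208815 to 84208921. These 3 hairpins span 404 bp, and no protein-coding gene of the RefSeq table overlaps them. On chromosome 13 (plus strand), Mir23b lies at 63300484 to 63300557, Mir27b at 63300712 to 63300784 and Mir24-1 at 63301208 to 63301275, a span of 792 bp inside the protein-coding gene Aopep. In the GENCODE vM1 annotation of an earlier mouse build, Mir23b and Mir27b lay within this locus, there named 2010111I01Rik, without overlapping an exon. Both mir-24 hairpins have an antisense hairpin, Mir3074-2 and Mir3074-1. The mir-3074 arms were almost unread, with at most 4 reads in any library.

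Values are reads per 1000000 reads of the library total (RPM). Totals ran from 16478281 to 17623671 reads in Control and from 17086815 to 20169254 in TGF-beta1, and 1 read was worth 0.0496 to 0.0607 RPM. The listed miRNAs took 79.6% ± 0.142 of the Control totals and 72.3% ± 0.752 of the TGF-beta1 totals (SD of 3 libraries). The median log2 change of the 408 tested miRNAs was -0.17 in RPM and -0.03 after TMM scaling, and a fall of 0.17 in RPM is the fall of the typical miRNA. Ratios of members within a library, given after the levels, are the same under any scaling. Mesenchymal and contractile miRNAs (miR-143, miR-145, miR-199a and miR-214, 5 arms) summed to 2587 to 2962 RPM in Control and 2609 to 3075 in TGF-beta1, most of it miR-143-3p, with 1 arm higher (miR-145-5p, log2 change 0.92) and 2 lower (miR-199a-3p and miR-199a-5p, -0.31 and -0.95). The 2 listed endothelial arms of miR-126 summed to at most 0.298 RPM in any library, and the 4 listed of 6 haematopoietic miRNAs to at most 0.659. The 7 epithelial arms summed to 315.0 to 329.0 RPM in Control and 342.6 to 367.1 in TGF-beta1, most of it miR-192-5p. The 2 higher arms were miR-192-5p and miR-194-5p, with log2 changes of 0.23 and 0.54. The 3 lower arms were miR-200a-3p, miR-200b-3p and miR-429-3p, with log2 changes of -2.64, -2.27 and -1.94. Skeletal muscle miRNAs, 3 arms, summed to 3440 to 3646 and 3285 to 3465 RPM, nearly all of it miR-206-3p, whose log2 change was -0.06 (adjusted p = 0.42 by limma). The part of other cell types in the members' changes was not tested.

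The 3p arms of miR-27 fell after TGF-beta1, by more than any miR-23 or miR-24 arm beside them. MiR-27a-3p and miR-27b-3p each lost about as much as the other, miR-23a-3p rose, miR-24-3p did not pass the test, and miR-23b-3p fell by less. Of the 10 members that passed the filter on low counts, 3 were higher and 5 lower at a limma adjusted p under 0.05. Over all 408 tested miRNAs, 17.4% were higher and 31.9% lower, 49.3% in either direction. With TMM scaling 4 members were higher and 3 lower, and over all tested miRNAs 98 were higher and 94 lower in place of 71 and 130. The 2 members called lower with a log2 change below -1 were miR-27a-3p and miR-27b-3p, where 7.84% of all tested miRNAs were, and 0 members were called higher by more than 1, where 4.41% were. That count was also 0 by limma at an unadjusted p under 0.05, since the highest change of a member was 0.87, while edgeR with TMM and DESeq2 on the recovered reads each called 2, miR-23a-5p and miR-27a-5p. The median log2 change of the 10 tested members was -0.15, beside -0.17 for all tested miRNAs. In 7 of the 10 the TGF-beta1 libraries lay wholly to one side of Control, 3 above and 4 below. The same held for 56.9% of all tested miRNAs, 20.8% above and 36% below.

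**Figure D1:**
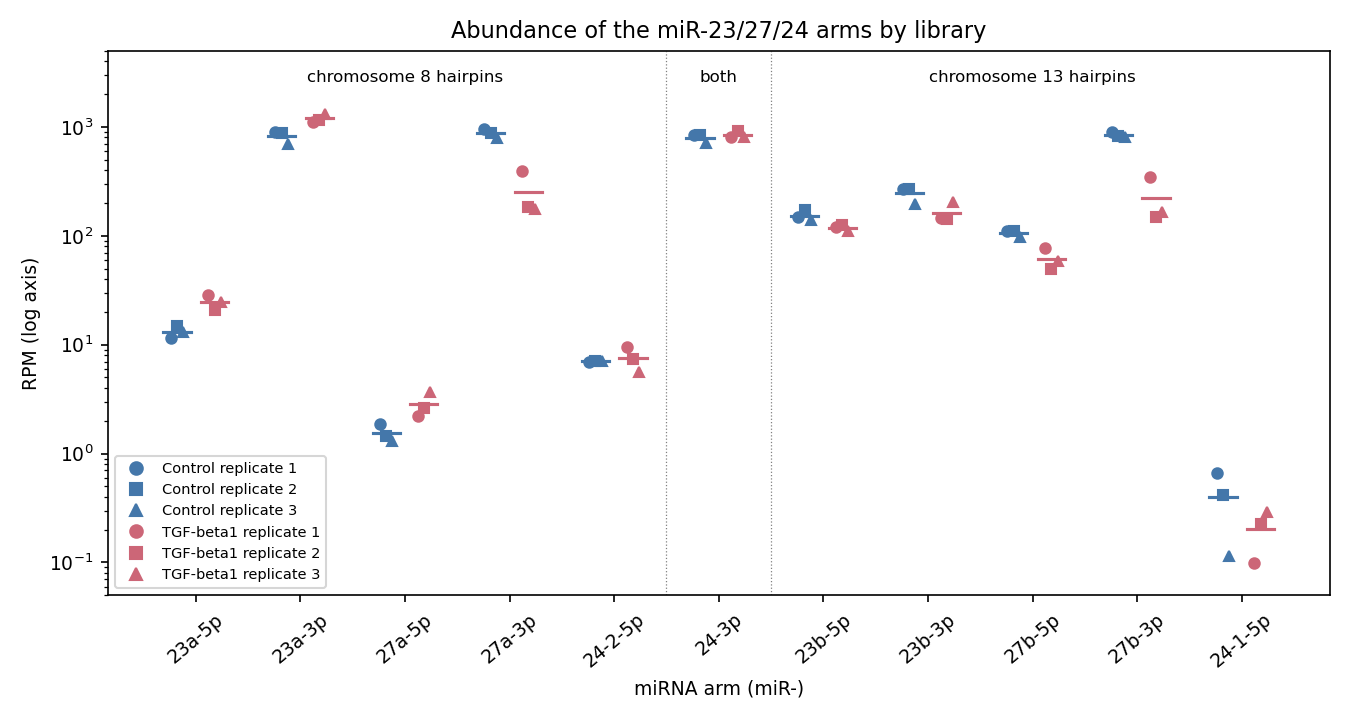
Abundance of each listed arm in RPM on a log axis, with 1 point per library (circle, square and triangle for replicates 1, 2 and 3) and a bar at the group mean, arms of chromosome 8 on the left and of chromosome 13 on the right. Both miR-27 3p arms sit lower in all 3 TGF-beta1 libraries, with replicate 1 above replicates 2 and 3.

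Mmu-miR-27a-3p, the abundant arm of its hairpin, had 960.7, 870.8 and 795.0 RPM in Control replicates 1 to 3 and 392.5, 184.7 and 176.5 RPM in TGF-beta1 replicates 1 to 3. All TGF-beta1 libraries lay below all Control libraries, and TGF-beta1 replicate 1 lay above the other TGF-beta1 libraries. The mean went from 875.5 ± 82.9 to 251.3 ± 122.4 RPM (SD of 3 libraries), or 0.287 of Control. The log2 change was -1.89 (SE 0.28, adjusted p = 0.00134 by limma), and it was -2.27 without TGF-beta1 replicate 1. By abundance miR-27a-3p moved from rank 35 to rank 50 of the table.

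Mmu-miR-27b-3p, with the same seed, had 895.5, 825.0 and 800.2 RPM in Control and 348.1, 148.7 and 167.0 RPM in TGF-beta1. The order of the libraries was much the same as for miR-27a-3p, with TGF-beta1 replicate 1 again the highest of its group and no overlap between the groups. The mean went from 840.2 ± 49.4 to 221.2 ± 110.2 RPM (SD of 3 libraries), 0.263 of Control, and the log2 change was -2.03 (SE 0.29, adjusted p = 0.00105 by limma). It was -2.41 without TGF-beta1 replicate 1. Over the 6 libraries the log2 levels of the miR-27 3p arms had a Pearson r of 0.997, which is a description only, since the libraries are shared and the arms differ by 1 base. How reads matching both arms were counted is not given in the sources used here, and the part of shared reads was not tested.

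Mmu-miR-23a-3p, which lies beside miR-27a on chromosome 8, had 905.9, 877.6 and 699.0 RPM in Control and 1106, 1165 and 1326 RPM in TGF-beta1. Every TGF-beta1 library lay above every Control library. The mean rose from 827.5 ± 112.2 to 1199 ± 113.8 RPM (SD of 3 libraries), and the log2 change was 0.54 (SE 0.12, adjusted p = 0.00711 by limma). MiR-23a-3p thereby went from rank 39 to rank 30.

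Mmu-miR-24-3p, made at both loci, had 840.1, 838.0 and 704.9 RPM in Control and 807.6, 907.6 and 810.2 RPM in TGF-beta1. The groups overlapped. Its log2 change of 0.09 ± 0.10 (SE) did not pass (adjusted p = 0.504 by limma), with means of 794.3 ± 77.5 and 841.8 ± 57.0 RPM (SD of 3 libraries). With TMM scaling it was 0.30 and passed (adjusted p = 0.0238 by limma). It did not pass with median-of-ratios, upper-quartile or sum-of-miRNAs scaling, at 0.29, 0.40 and 0.23 (adjusted p = 0.0516, 0.0611 and 0.0907 by limma), nor with edgeR and TMM (adjusted p = 0.0753) or DESeq2 (adjusted p = 0.0898).

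Mmu-miR-23b-3p, beside miR-27b on chromosome 13, had 271.1, 266.8 and 195.7 RPM in Control and 144.7, 143.3 and 202.3 RPM in TGF-beta1. TGF-beta1 replicate 3 lay above Control replicate 3, so the groups overlapped. The mean fell from 244.5 ± 42.3 to 163.4 ± 33.7 RPM (SD of 3 libraries), and the log2 change was -0.58 (SE 0.18, adjusted p = 0.0278 by limma). With TMM scaling the change was -0.37 and did not pass (adjusted p = 0.0669 by limma). It passed with median-of-ratios scaling (adjusted p = 0.0483 by limma) and with edgeR on TMM and on library totals (adjusted p = 0.0353 and 0.0302). With upper-quartile and sum-of-miRNAs scaling (adjusted p = 0.249 and 0.0815 by limma) and DESeq2 (adjusted p = 0.0723) it did not pass. It also did not pass without Control replicate 1 or 2 or TGF-beta1 replicate 1 or 2, with limma adjusted p-values of 0.0936, 0.104, 0.0610 and 0.0950.

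The 5p arms, which are the less abundant strand of every hairpin here, differed by locus. MiR-23a-5p of chromosome 8 had 11.5, 14.7 and 12.9 RPM in Control and 28.3, 21.0 and 24.7 RPM in TGF-beta1, without overlap. Its mean rose from 13.1 ± 1.58 to 24.7 ± 3.66 RPM (SD of 3 libraries), and the log2 change was 0.87 (SE 0.16, adjusted p = 0.00314 by limma). Mmu-miR-27a-5p, the other strand of the hairpin whose 3p arm fell, also lay higher in every TGF-beta1 library. It had only 31, 24 and 23 reads in Control and 45, 47 and 63 in TGF-beta1, or 1.88, 1.44 and 1.31 against 2.23, 2.62 and 3.69 RPM. Its log2 change of 0.59 (SE 0.18, adjusted p = 0.0248 by limma) is damped by the pseudocount of 1 RPM, and was 0.83 with a pseudocount of 0.1. It did not pass without Control replicate 2 or 3 or TGF-beta1 replicate 2 or 3 (adjusted p = 0.0527 to 0.0790 by limma). MiR-24-2-5p, the remaining 5p arm of chromosome 8, had 6.92, 7.07 and 7.15 RPM in Control and 9.57, 7.31 and 5.62 RPM in TGF-beta1, with overlap and a log2 change of 0.05 (SE 0.18, adjusted p = 0.826 by limma).

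On chromosome 13 the tested 5p arms were lower in RPM after TGF-beta1, and for miR-23b-5p this depended on scaling. Mmu-miR-27b-5p had 110.7, 110.7 and 97.3 RPM in Control and 77.0, 49.1 and 59.3 RPM in TGF-beta1, without overlap. Its mean fell from 106.2 ± 7.73 to 61.8 ± 14.1 RPM (SD of 3 libraries), and the log2 change was -0.79 (SE 0.17, adjusted p = 0.00611 by limma). MiR-23b-5p had 149.8, 172.0 and 138.6 RPM in Control and 119.4, 126.5 and 110.7 RPM in TGF-beta1, again without overlap. Its log2 change of -0.36 (SE 0.12, adjusted p = 0.0318 by limma) came to -0.15 with TMM scaling and did not pass (adjusted p = 0.273 by limma). With median-of-ratios, upper-quartile and sum-of-miRNAs scaling it was -0.15, -0.05 and -0.22 (adjusted p = 0.319, 0.858 and 0.153 by limma). The change passed with edgeR on library totals (adjusted p = 0.0324), but not with edgeR and TMM (adjusted p = 0.182) or DESeq2 (adjusted p = 0.513). It also failed to pass in 5 of the 6 fits that left out 1 library (adjusted p = 0.0523 to 0.0968 by limma), all but the one without Control replicate 3. MiR-24-1-5p had 11, 7 and 2 reads in Control and 2, 4 and 5 in TGF-beta1, too few for the test, and no difference was detectable at this depth.

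**Figure D2:**
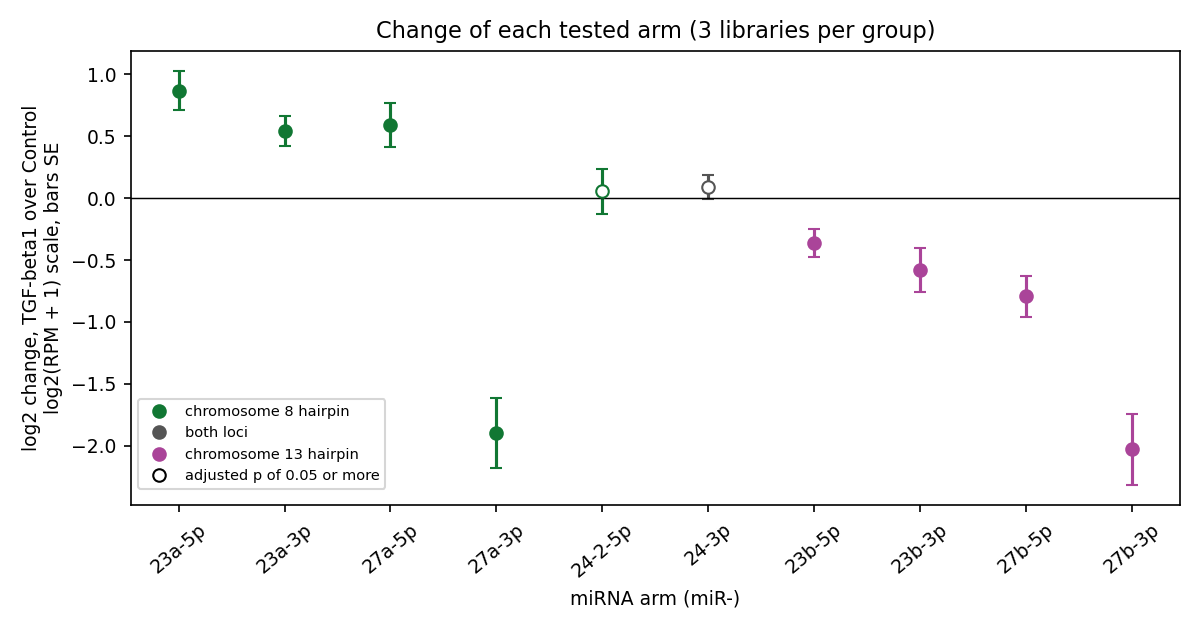
Log2 change of each tested arm, TGF-beta1 over Control, on the log2(RPM + 1) scale, with bars of 1 SE (3 libraries per group) and open points for an adjusted p of 0.05 or more. The chromosome 8 arms other than miR-27a-3p lie at or above 0, from 0.05 to 0.87, the arms of chromosome 13 alone lie below 0, miR-24-3p of both loci lies at 0.09, and the miR-27 3p arms lie lowest at -1.89 and -2.03.

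Ratios between members of a library do not depend on its total. In Control, miR-27a-3p and miR-23a-3p stood near parity, at 1.06, 0.992 and 1.14 reads of miR-27a-3p per read of miR-23a-3p. In TGF-beta1 the ratio was 0.355, 0.159 and 0.133, below every Control library. It was 5.43-fold lower, a log2 difference of -2.44 ± 0.44 (SE, 3 libraries each). The smallest of the 9 differences between a TGF-beta1 and a Control library was -1.48 and the largest -3.09 on the log2 scale. The exact two-sided permutation p was 0.1, the smallest that 3 against 3 libraries allow, and 0.129 after Benjamini-Hochberg adjustment over 18 ratios. The same p-values hold for each of the 14 ratios of these 18 whose groups did not overlap, so none of them can pass a threshold of 0.05 by this test.

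Against miR-24-3p, miR-27a-3p went from 1.14, 1.04 and 1.13 in Control to 0.486, 0.204 and 0.218 in TGF-beta1, 3.96-fold lower. MiR-27b-3p per miR-24-3p went from 1.07, 0.984 and 1.14 to 0.431, 0.164 and 0.206, 4.34-fold lower. Neither overlapped, and TGF-beta1 replicate 1 was the highest of its group in both. MiR-27b-3p per miR-23b-3p, its chromosome 13 neighbour, went from 3.30, 3.09 and 4.09 to 2.41, 1.04 and 0.825. This was 2.73-fold lower, with a log2 difference of -1.45 ± 0.48 (SE, 3 libraries each) and, in TGF-beta1 replicate 1, a value only 0.36 below the nearest Control library on the log2 scale. Summing the a and b forms, which keeps reads shared by the paralogues within 1 term, the miR-27 3p arms per miR-23 3p arms were 4.97-fold lower and per miR-24-3p 4.14-fold lower, without overlap in either.

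MiR-23a-3p per miR-24-3p lay higher in TGF-beta1, at 1.37, 1.28 and 1.64 against 1.08, 1.05 and 0.992 in Control, while miR-23b-3p per miR-24-3p lay lower, at 0.179, 0.158 and 0.250 against 0.323, 0.318 and 0.278. In the fit over neighbouring pairs, given further on, the first of these ratios did not pass (adjusted p = 0.0536 by limma). The second passed (adjusted p = 0.0283 by limma), but not without Control replicate 1 or 2 or TGF-beta1 replicate 2 (0.0977, 0.0889 and 0.0887). As a share of the reads of these 5 3p arms together, miR-27 held 48.0% ± 1.91 in Control and 17.4% ± 7.81 in TGF-beta1 (SD of 3 libraries), with 26.5% in TGF-beta1 replicate 1 and 13.1% and 12.8% in replicates 2 and 3. The share of miR-23a-3p was 21.9% to 23.9% in Control and 39.5% to 49.4% in TGF-beta1, and that of miR-24-3p 22.2% ± 0.555 and 31.6% ± 3.57. All 11 members together summed to 3864 ± 366.5 RPM in Control and 2892 ± 139.9 in TGF-beta1 (SD of 3 libraries), without overlap.

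**Figure D3:**
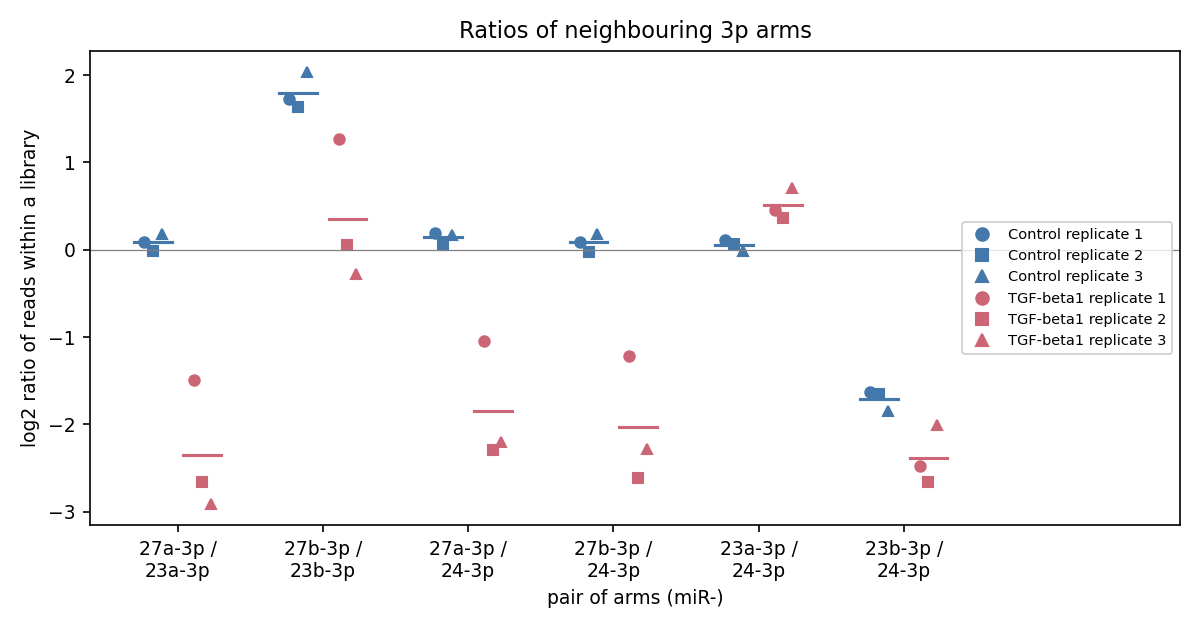
Log2 ratio of reads between neighbouring 3p arms within each library, with 1 point per library and a bar at the group mean. The 4 ratios with a miR-27 3p arm lie lower in all TGF-beta1 libraries, and TGF-beta1 replicate 1 lies nearest to Control in each of them.

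The loci were compared through the ratio of their paralogues. MiR-23a-3p per miR-23b-3p was 3.34, 3.29 and 3.57 in Control and 7.64, 8.12 and 6.55 in TGF-beta1, 2.18-fold higher without overlap. No sequence of miR-23b-3p was held, and the part of reads shared by these arms was not tested. MiR-23a-5p per miR-23b-5p, arms that differ in seed, was 0.0770, 0.0854 and 0.0933 against 0.237, 0.166 and 0.223, which was 2.43-fold higher. MiR-27a-5p per miR-27b-5p was 0.0170, 0.0130 and 0.0134 against 0.0290, 0.0534 and 0.0622, or 3.19-fold higher. In these 3 pairs the chromosome 8 arm was higher relative to the chromosome 13 arm in every TGF-beta1 library than in any Control library. MiR-27a-3p per miR-27b-3p was 1.07, 1.06 and 0.994 in Control and 1.13, 1.24 and 1.06 in TGF-beta1. The groups overlapped, with a log2 difference of 0.13 ± 0.08 (SE, 3 libraries each) and an exact two-sided permutation p of 0.2 (0.225 adjusted over 18 ratios). Its 9 library-to-library differences ran from -0.02 to 0.32, against 0.88 to 1.30 for the miR-23 3p arms, and the difference between these ratios was not tested.

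The arms of the miR-27 hairpins parted. MiR-27a-5p was 0.00196, 0.00165 and 0.00164 of miR-27a-3p in Control and 0.00568, 0.0142 and 0.0209 in TGF-beta1, 6.82-fold higher. MiR-27b-5p was 0.124, 0.134 and 0.122 of miR-27b-3p in Control and 0.221, 0.330 and 0.355 in TGF-beta1, 2.34-fold higher. Neither overlapped. The few miR-27a-5p reads set a counting error of up to 0.30 on its log2 ratio in a library, while the difference between the groups was 2.77 ± 0.56 (SE, 3 libraries each). For miR-23a and miR-23b the 5p to 3p ratios of the groups overlapped, with log2 differences of 0.37 ± 0.23 and 0.22 ± 0.24 (SE, 3 libraries each). Their exact two-sided permutation p-values were 0.2 and 0.5. MiR-24-2-5p per miR-24-3p also overlapped, at -0.03 ± 0.25 (SE, 3 libraries each, exact two-sided permutation p = 0.8). Since miR-24-3p is made at both loci, this last value is not the arm ratio of the miR-24-2 hairpin alone.

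**Figure D4:**
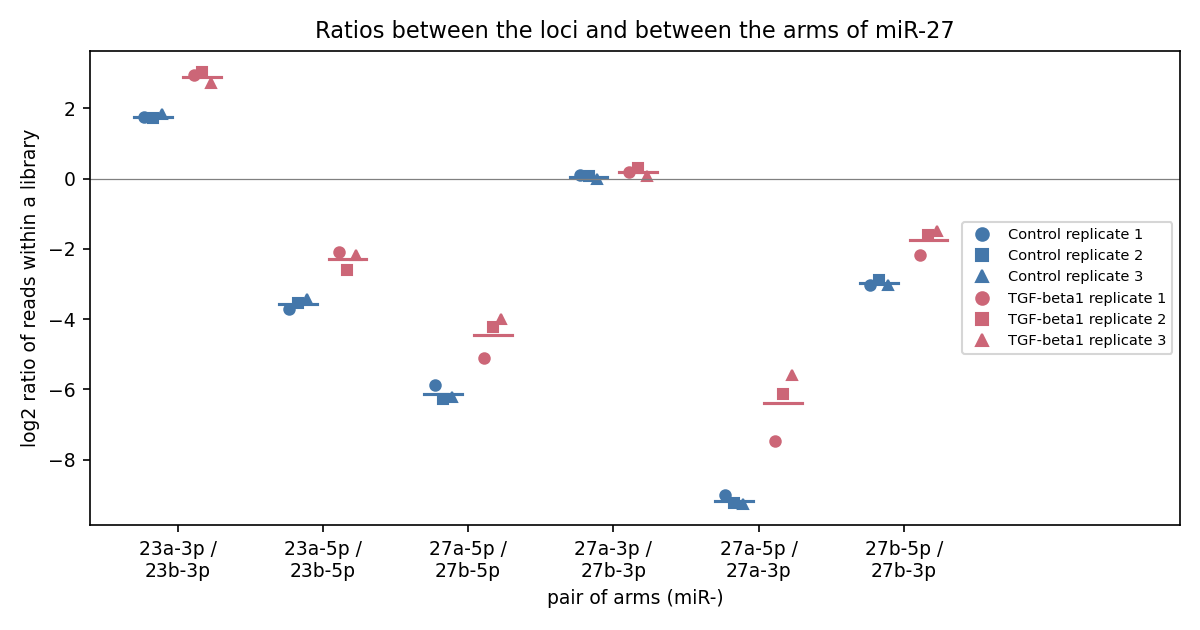
Log2 ratio of reads within each library for chromosome 8 over chromosome 13 paralogues (left 4 pairs) and for the 5p over the 3p arm of miR-27 (right 2 pairs), with a bar at the group mean. The miR-27a-3p to miR-27b-3p ratio stays near 0 in both groups while the other 5 lie higher in all TGF-beta1 libraries.

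The arm ratios were also fitted over the 84 hairpins whose 2 arms are listed under the same hairpin name and each averaged 1 RPM or more. Hairpins whose arms are listed under different names, miR-24-2 among them, were not in this fit. Of these, 22 changed (26.2%) and in 17 the 3p arm fell relative to the 5p arm (20.2%). MiR-27a had the largest absolute change of the 84, -2.48 ± 0.34 on the log2 scale (SE, limma adjusted p = 0.000434), and miR-27b the second largest, -1.23 (SE 0.22, adjusted p = 0.00168 by limma). MiR-23a and miR-23b did not pass, at -0.33 (SE 0.22) and -0.22 (SE 0.22), with adjusted p-values of 0.297 and 0.479 by limma. The count of 22 was 3 without Control replicate 1 and 4 without TGF-beta1 replicate 2, with miR-27a and miR-27b passing in both fits.

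For comparison with other neighbouring miRNAs, the ratio was fitted for all 351 pairs of tested miRNAs whose hairpins lie within 10 kb on a strand. At an adjusted p under 0.05, 33% of the pairs changed, and 10.5% did so with an absolute log2 change above 1. Of the 20 member pairs, 12 changed. All 7 with a miR-27 3p arm were among them, with absolute log2 changes from 1.44 to 2.76, and 5 of the 13 others, of which none exceeded 0.88. The pairs share arms and are not independent of each other. MiR-23a-3p over miR-27a-3p changed by 2.43 (SE 0.32, adjusted p = 0.000629 by limma), the second largest of the 351 after miR-23a-5p over miR-27a-3p at 2.76 (adjusted p = 0.000102 by limma). MiR-24-3p over miR-27b-3p followed with 2.11 (SE 0.31, adjusted p = 0.000893 by limma). MiR-23b-3p over miR-27b-3p ranked 13 with 1.44 (SE 0.34, adjusted p = 0.0103 by limma), and its adjusted p was 0.0594 without TGF-beta1 replicate 2. Among the 331 pairs of other miRNAs, 104 changed, with a median absolute log2 change of 0.37 and a highest of 1.92. Without Control replicate 1 the count of changed pairs was 76 in place of 116.

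**Figure D5:**
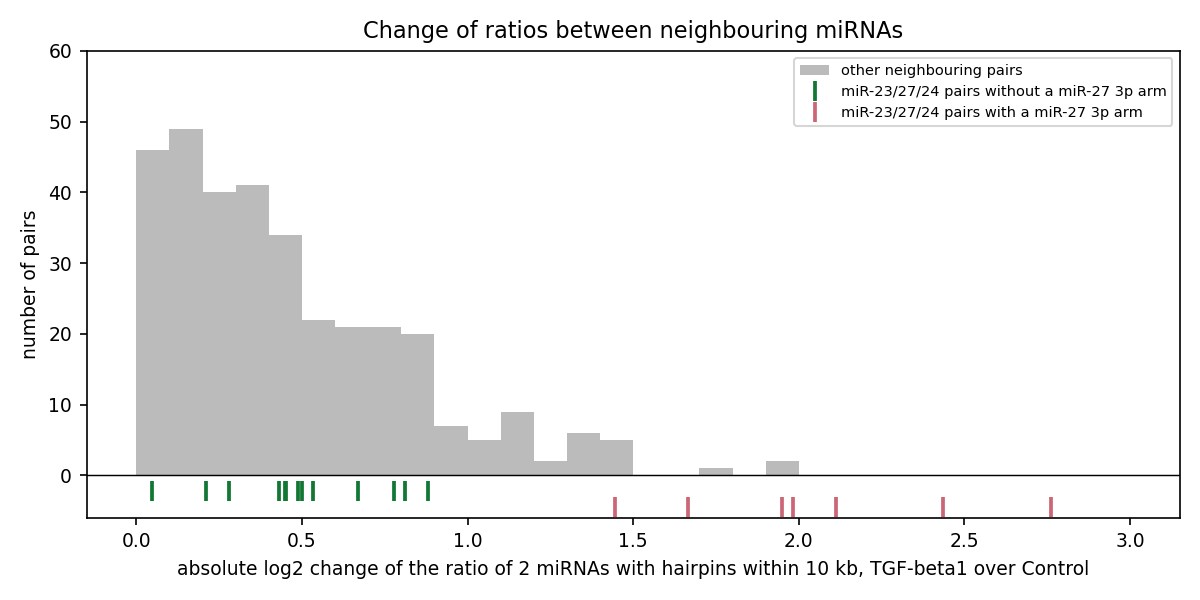
Absolute log2 change of the ratio between neighbouring miRNAs, TGF-beta1 over Control, as a histogram of the 331 other pairs and as ticks below it for the 20 member pairs. The 7 member pairs with a miR-27 3p arm lie at 1.44 or more and the 13 without one at 0.88 or less.

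Among the 87 other tested miRNAs averaging 50 RPM or more, the log2 levels most like those of miR-27a-3p over the 6 libraries were miR-25-3p (Pearson r = 0.985), let-7i-5p (0.984) and miR-101b-3p (0.983). For miR-27b-3p they were miR-25-3p (0.984), miR-130a-3p (0.980) and let-7i-5p (0.980). These values describe 6 libraries that fall into 2 groups, and all 4 miRNAs were lower in TGF-beta1, by less than the miR-27 3p arms. MiR-25-3p went from 1388 ± 81.5 to 768.6 ± 99.8 RPM (SD of 3 libraries), and the log2 change was -0.86 (adjusted p = 0.000522 by limma), and miR-130a-3p from 202.9 ± 17.1 to 82.9 ± 12.9 RPM, a log2 change of -1.29 (adjusted p = 0.000282 by limma). TGF-beta1 replicate 1 was the highest library of its group for each of them, as it was for miR-27. The fall and this order follow in part from choosing the miRNAs by their likeness to miR-27 over the same 6 libraries.

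Of 17 miRNAs known from TGF-beta1 signalling in the kidney, none of them a member, 16 were listed and 13 tested. At a limma adjusted p under 0.05, 4 were higher and 7 lower, where 17.4% of all 408 tested miRNAs were higher and 31.9% lower. The 13 had a median log2 change of -0.62, beside -0.17 for all tested miRNAs. The higher ones were miR-192-5p, miR-29a-3p, miR-382-5p and miR-433-3p, with log2 changes of 0.23, 0.21, 0.87 and 1.41. The lower ones were miR-200a-3p and miR-200b-3p, which restrain ZEB factors, at -2.64 and -2.27, and miR-26a-5p at -1.48. With them were miR-130b-3p at -1.04, miR-29c-3p at -0.75, let-7b-5p at -0.64 and miR-29b-3p at -0.62. MiR-21-5p, a miRNA linked to fibrosis in many tissues, had 15381 RPM in Control and 16921 in TGF-beta1 and did not pass (log2 change 0.13, limma adjusted p = 0.163).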

How the data were processed

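Per the labels, total RNA was extracted with TRIzol and small RNA was sequenced on an Illumina HiSeq instrument. The authors trimmed adaptors, dropped short and low-quality reads and compared the rest with miRBase miRNAs using Bowtie, whose version is not given in the sources used here. The authors deposited 1 table of normalized values, named TPM, which is RPM here. Whole reads were recovered from the deposited RPM values of each library (100% within a tolerance of 0.002), with totals of 16478281 to 20169254 reads. The counting error given for the miR-27a-5p ratio covers read counting only, while each ± is the SD or SE named beside it. RefSeq names matched 581 of the 778 miRNAs and hairpin symbols 43 more. Sequences and positions are those of RefSeq, GRCm38.p6, since the table holds no coordinates.

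MiRNAs kept by filterByExpr of edgeR 4.0.16 (minimum count 10) were tested with limma 3.58.1 in R 4.3.3 on log2(RPM + 1), two-sided, with Benjamini-Hochberg adjustment. Fold changes on that scale understate those of low miRNAs. Calls needed an adjusted p under 0.05 together with a log2 change past 1 in either direction. Ratios used no pseudocount and exact two-sided permutation tests (scipy 1.17.1). For the arm ratios over hairpins matched by name and the ratios over neighbouring pairs, limma was used with a pseudocount of 1 RPM. Alternatives were scaling by upper quartile, TMM, median of ratios and the sum of the listed miRNAs, no filter, pseudocounts of 0.1 and 10, edgeR and DESeq2 1.42.0, a log2 change above 2, a replicate block and each library left out in turn. The fits were tested on simulated data. Named miRNAs are all arms of the 6 hairpins, their antisense arms, miRNAs sharing a seed with a member, the 3 most like each miR-27 3p arm, and those of the fixed lists. The members and lists were chosen with earlier results of these data known.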

Additional observations from a re-analysis of the deposited data

How the results depend on the processing

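The falls of miR-27a-3p and miR-27b-3p kept their direction and their call under all alternatives run, except that with a log2 change above 2 required, only miR-27b-3p was called, 1 member. Over the fits that left out 1 library their log2 changes were -2.27 to -1.69 and -2.41 to -1.80. Counts moved with scaling, pseudocount and test, and the cause was not tested. Members lower at an adjusted p under 0.05 numbered 3 in place of 5 with TMM, upper-quartile and sum-of-miRNAs scaling and DESeq2, and 3 to 5 without 1 library (3 without Control replicate 1 or 2 or TGF-beta1 replicate 1 or 2), while those higher numbered 2 to 3. Members called higher numbered 1 with upper-quartile, TMM and median-of-ratios scaling and 2 with edgeR and TMM and with DESeq2, and 0 without any 1 library. Over all miRNAs, the 18 called higher became 35 with upper quartile, 31 with TMM, 30 with median of ratios, 32 and 2 with pseudocounts of 0.1 and 10, 45 and 32 with edgeR on TMM and on library totals, 46 with DESeq2 and 0 above a log2 change of 2, and were 15 to 21 without 1 library. The 32 called lower became 19 with upper quartile, 54 and 15 with pseudocounts of 0.1 and 10, 54 with edgeR on library totals and 6 above 2, and were 26 to 41 without 1 library. Those lower at any fold, 130, became 73 with upper quartile and 72 with DESeq2, and were 98 to 141 without 1 library, against 62 to 67 higher. Changed arm ratios, 22, became 12 with a pseudocount of 0.1 and were 3 to 23 without 1 library. Changed neighbouring pairs, 116, became 68 with a pseudocount of 0.1, and were 76 to 151 without 1 library. Within 1 kb, where fewer pairs were fitted, 51 changed, a count that cannot be set directly against 116. Every ratio kept its direction without 1 library except miR-24-2-5p per miR-24-3p, whose log2 difference of -0.03 ran from -0.25 to 0.13. It was 0.064 without Control replicate 3, 0.026 without TGF-beta1 replicate 2 and 0.13 without TGF-beta1 replicate 3. The log2 difference of miR-23b-3p per miR-24-3p was 0.26 with the paralogues summed, since miR-23a-3p then holds most of the reads. MiR-24-2-5p had log2 changes of -0.12 to 0.22 without 1 library, the lowest without TGF-beta1 replicate 1, and miR-23a-3p over miR-27a-5p had -0.11 to 0.029, above 0 at 0.026 without Control replicate 2 and at 0.029 without TGF-beta1 replicate 3.

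The replicate numbers are shared by the groups, and whether same-numbered libraries were paired is not known here. Their deviations from the group means correlated at -0.08, -0.21 and -0.34, which cannot decide it. With a replicate block the changed arm ratios numbered 5 in place of 22, the log2 changes of miR-27a-3p and miR-27b-3p stayed at -1.89 and -2.03 (limma adjusted p = 0.000796 each), and miR-23b-3p and miR-27a-5p had limma adjusted p-values of 0.0600 and 0.0640. The ratio of miR-27a-3p to miR-23a-3p stayed at -2.44, with an exact sign-flip p of 0.25 over the number pairs, the smallest they allow.

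With 3 libraries a group, exact tests cannot go below 0.1. Depth limits miR-27a-5p, with 23 to 63 reads a library, and miR-24-1-5p, with 2 to 11.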
